A study of Mus musculus with 7 samples.

Results

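The response of mouse B cells to BAFF between 8 h and 30 h was followed in a pair of RNA sequencing libraries, 1 of cells held with BAFF for 30 h and 1 of cells held with BAFF for 8 h. The genes compared were the 9992 that Cufflinks assembled in both libraries and that had at least 1 FPKM in 1 of them, out of 11670 genes assembled in any of the 7 libraries of the series. FPKM, the number of fragments scaled to transcript length and to the mapped total of the library, was summed over a gene's assembled transcripts of at least 300 bases, and levels were compared as log2(FPKM + 1). All 7 libraries came from wild-type primary B cells of the C57BL/6 mouse strain: BAFF at 30 h and at 8 h, anti-IgM with BAFF at 30 h and at 8 h, anti-IgM alone at 30 h and at 8 h, and untreated cells at 0 h. The labels give neither the dose, nor the age of the animals, nor how the cells were isolated. Each condition was 1 library, so no test could be made and no value has a replicate error. The intervals given were built from the bounds that Cufflinks put on each transcript, combined per gene as if transcripts were independent. They span 2 SD on each side. The error in those bounds is called counting error here, and it holds no spread between cultures. None of the 7 libraries is of cells kept for 8 h or 30 h without a stimulus, so time in culture and the length of BAFF treatment cannot be told apart.

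BAFF is a cytokine of the tumour necrosis factor family that keeps mature B cells alive. Its main receptor, BAFF-R, drives the alternative NF-κB pathway: TRAF3 and the ubiquitin ligases cIAP1 and cIAP2 stop destroying the kinase NIK, the precursor p100 is cut to p52, and p52 with RelB enters the nucleus. Anti-IgM crosslinks the antigen receptor, a signal that on its own can start division in cultured B cells. The title and design of the series set the NF-κB response to BAFF in maturing cells beside that in dividing ones.

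The defining genes of B cells were strongly expressed at both times. Of the 12 B cell markers listed, 11 were compared, and their summed level was 8833 FPKM at 30 h, against 6827 FPKM at 8 h. Most of both sums was Cd74, the class II invariant chain. The median level of the 11 was 263 FPKM at 30 h and 250 FPKM at 8 h. Ms4a1, which encodes CD20, was at 402 FPKM at 30 h and 250 FPKM at 8 h. Cd79a was listed at 0 in both, and in all 7 libraries of the series. Whether this came from naming or assembly was not tested, so the 0 cannot be read as absence of its RNA. Coverage divided by FPKM gives 2.07 gigabases of mapped sequence for the 30 h library and 1.89 gigabases for the 8 h library, a ratio of 1.10.

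Between 8 h and 30 h of BAFF, the genes of mitosis and DNA replication had higher levels, and NF-κB subunits, their inhibitors, Pim1, Ccr7 and Cxcr4 had lower ones. A gene was counted as different when its log2(FPKM + 1) was at least 1 apart and its intervals at the 2 times were also apart. By that rule 410 genes were higher at 30 h, 4.1% of those compared, and 453 were lower, 4.53%, which makes 863 in all, 8.64%. Over all genes compared the median difference was -0.04. Because each library was assembled on its own, a gene can differ through the transcripts that Cufflinks built. A second value was therefore taken, the reads of all assembled pieces of at least 300 bases lying over a gene's exons, on either strand. A counted gene was called held when this value also differed by at least 1 in the same direction. The second value is calculated from the same FPKM and is not independent of it. Of the counted genes 137 higher ones were held, 1.37% of those compared, and 55 lower ones, 0.55%. Thus 33.4% of the higher genes and 12.1% of the lower genes were held. In bulk libraries such as these, a change in the number of cells of a kind and a change in the RNA each cell holds cannot be told apart.

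**Figure D1:**
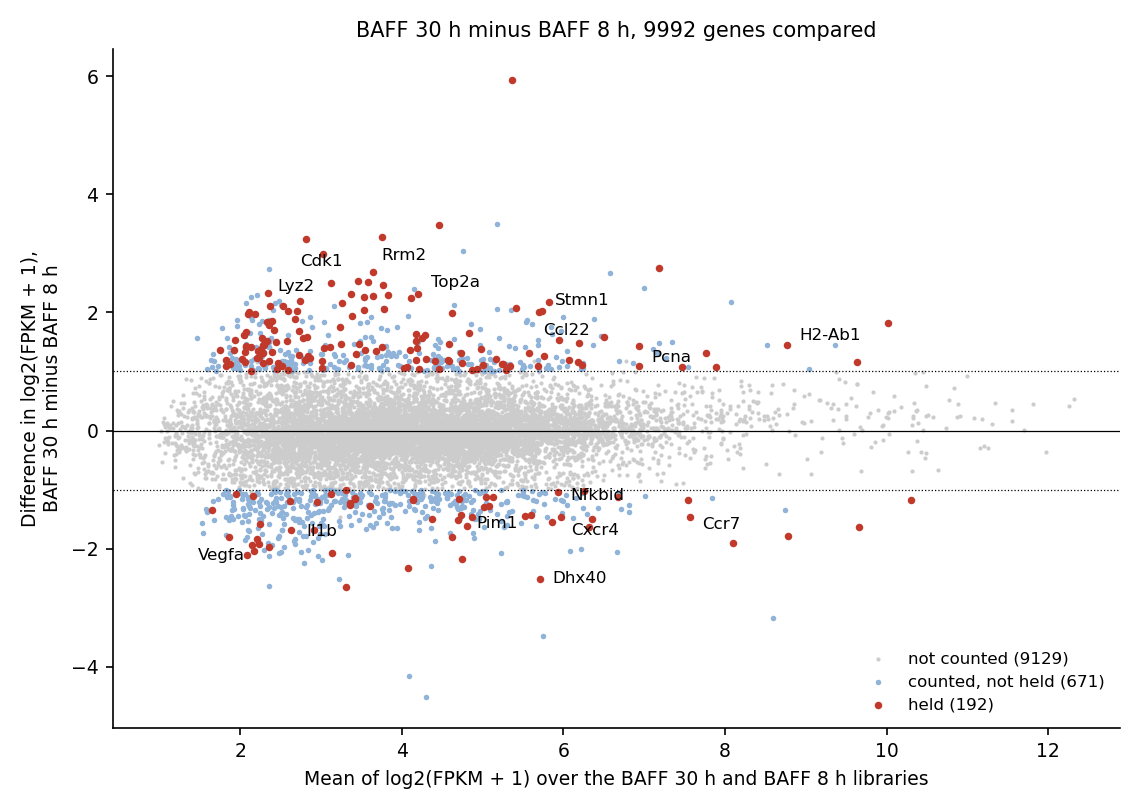
Difference in log2(FPKM + 1) between the BAFF 30 h and BAFF 8 h libraries (vertical) against the mean of both (horizontal) for 9992 genes. Red points are the 192 held genes and blue points the 671 counted but not held, with dotted lines at a difference of 1. Rrm2, Cdk1 and Top2a lie among the largest held differences above the line, and Dhx40 among those under it. Ccr7 and Cxcr4 are held with smaller decreases.

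The held genes fell into several courses when the untreated library was set beside the others. Of the 137 held higher genes 132 were assembled at 0 h. Of these, 67 were within 1 log2 unit of the untreated level at 8 h and at least 1 above it at 30 h. A further 35 were at least 1 below the untreated level at 8 h and within 1 of it at 30 h, so that their higher value at 30 h was a return towards it. Of the 49 held lower genes assembled at 0 h, 17 were at least 1 above the untreated level at 8 h and within 1 at 30 h. Another 13 were within 1 at 8 h and at least 1 below at 30 h. By function, 54 of the 137 held higher genes stood in at least 1 of 8 lists of cell cycle and related genes, 39.4%. So did 1 of the 55 held lower genes, Cdkn1a, 1.82%. Of all 9992 genes compared 227 stood in these lists, 2.27%. The lists cover mitosis, DNA replication, nucleotide synthesis, entry into S phase and inhibitors of cyclin-dependent kinases. They also take in DNA repair and checkpoint genes, replicative histones and their chaperones, and epigenetic enzymes.

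Genes of mitosis and the spindle moved together. Of 71 listed genes 67 were compared, and 36 of them were counted higher at 30 h, where 4.1% of all compared genes were. Of these, 32 were held, and 3 genes were counted lower with none held. The median difference of the list was 1.06 (all genes compared -0.04), and 57 of 67 differences were above 0. The summed level of the 67 genes was 565 FPKM untreated, 580 FPKM after 8 h of BAFF and 1118 FPKM after 30 h. At 8 h the list thus stood at its untreated level, with a median difference of -0.03 from 0 h, and at 30 h its median was 1.12 above 0 h.

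Cdk1 encodes the kinase that carries cells into mitosis. It was at 25.5 FPKM (interval 23.2 to 27.8) at 30 h, against 3.59 FPKM (2.67 to 4.50) at 8 h and 4.54 FPKM untreated. The difference of 2.53 is 5.78-fold on the FPKM + 1 scale, and the intervals are far apart. Top2a, the topoisomerase that untangles replicated chromosomes, was at 40.1 FPKM (38.4 to 41.8) at 30 h and 7.25 FPKM (6.46 to 8.05) at 8 h, with 9.72 FPKM untreated. Mki67, whose protein coats mitotic chromosomes and is the usual mark of dividing cells, was at 19.3 FPKM (18.6 to 20.1) at 30 h and 3.53 FPKM (3.16 to 3.90) at 8 h. In each of the 3 the 8 h library was the lowest and the 30 h library the highest of the BAFF course.

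The proteins behind these genes act at successive steps of division. Ube2c, the ubiquitin-conjugating enzyme of the anaphase-promoting complex, was at 24.3 FPKM at 30 h and 4.31 FPKM at 8 h. Kif11, the motor that separates the spindle poles, was at 13.3 FPKM at 30 h and 2.13 FPKM at 8 h. Birc5 encodes survivin, which sits with Aurora B on centromeres, and was at 26.5 FPKM at 30 h and 4.69 FPKM at 8 h. Its partners Aurkb (17.6 FPKM at 30 h, 6.28 FPKM at 8 h), Cdca8 (14.8 FPKM and 4.74 FPKM) and Incenp (19.4 FPKM and 7.02 FPKM) were held higher as well. Stmn1, the microtubule destabiliser stathmin, had one of the higher levels of the list, 107 FPKM at 30 h and 25.4 FPKM at 8 h. The cyclin genes Ccna2 (22.5 FPKM at 30 h, 4.69 FPKM at 8 h) and Ccnb1 (11.3 FPKM and 2.31 FPKM) followed the same course. Ccna2 and Cdca8 lie within 1000 bases of another expressed gene, with which they may share reads. Racgap1, of the cleavage furrow, was at 30.4 FPKM (25.0 to 35.7) at 30 h, and its 8 h value of 5.38 FPKM carried a wide interval (0.07 to 10.7).

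Some members of the list had no call or a call the exon reads did not share. Ccnb2, Cdc25c and Aspm were assembled at 30 h only, at 12.1, 7.39 and 2.46 FPKM, and were not compared. No gene named Knstrn was found in the merged set. The 3 genes counted lower were Melk (3.97 FPKM at 30 h, 9.78 FPKM at 8 h), Kif15 (8.59 FPKM and 19.1 FPKM) and Espl1 (3.65 FPKM and 8.68 FPKM). Their exon reads were higher at 30 h by 0.60, 1.30 and 1.26, the opposite direction. By exon reads the median of the list was 1.41, and 64 of 67 differences were above 0.

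Promoters of such genes are known for a shared pair of short sequences, a CCAAT box bound by NF-Y and the cell cycle genes homology region, usually TTTGAA and in some genes TTCGAA, bound by the DREAM and MuvB complexes. The following windows, from RefSeq on GRCm38.p6, show the 150 bases before the start of 5 mitosis genes, on the strand of the gene. They are among the 12 largest held increases left after genes were filtered by name, level and expressed neighbours. These 5 were picked as examples, and Racgap1 and Mki67, also among the 12, are not shown. Capitals mark every copy of the box and of the homology region, read on either strand. The windows lie at chr10:69352913-69353062 (Cdk1, minus strand), chr11:99024190-99024339 (Top2a, minus), chr11:117849087-117849236 (Birc5, plus), chr2:164769779-164769928 (Ube2c, plus) and chr19:37376232-37376381 (Kif11, plus).
Cdk1: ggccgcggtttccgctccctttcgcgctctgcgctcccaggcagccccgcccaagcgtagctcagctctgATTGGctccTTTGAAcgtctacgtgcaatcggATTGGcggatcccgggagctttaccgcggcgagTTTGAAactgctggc
Top2a: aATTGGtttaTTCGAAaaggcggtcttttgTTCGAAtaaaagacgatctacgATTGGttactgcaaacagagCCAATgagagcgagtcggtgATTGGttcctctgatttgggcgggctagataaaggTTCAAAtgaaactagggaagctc
Ube2c: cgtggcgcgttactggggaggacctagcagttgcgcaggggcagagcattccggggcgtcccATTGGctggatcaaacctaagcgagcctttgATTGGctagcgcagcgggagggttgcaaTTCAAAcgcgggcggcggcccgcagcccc
Kif11: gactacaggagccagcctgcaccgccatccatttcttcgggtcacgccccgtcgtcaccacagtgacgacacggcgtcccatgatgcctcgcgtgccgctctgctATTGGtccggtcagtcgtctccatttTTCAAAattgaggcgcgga
Birc5: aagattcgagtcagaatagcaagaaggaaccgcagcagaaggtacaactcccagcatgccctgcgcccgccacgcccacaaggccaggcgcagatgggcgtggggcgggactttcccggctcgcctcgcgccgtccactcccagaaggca

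The first 4 windows hold both kinds of letters and the Birc5 window holds neither. The RefSeq start of Kif11 lies 21 bases from the start in the merged transcript set. Windows of 250 bases before to 50 bases after the start were searched on both strands for the box together with either form of the homology region, allowing matches to overlap. Such a pair was present for 33 of the 53 mitosis genes that had a window, 62.3%, against 435 of 7294 genes compared, 5.96%, and 1112 of 15666 windows in the table, 7.10%. Among the mitosis genes that were held the share was 15 of 25, 60.0%, close to that of the whole list. DNA replication genes had the pair in 5 of 28 windows, 17.9%. They more often held the E2F letters TTTCCCGC, TTTGGCGC or TTTCGCGC, in 11 of 28 windows, 39.3%, against 297 of 7294, 4.07%, of the genes compared. A match describes the letters and is not evidence of binding in these cells.

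DNA replication genes shifted less far but nearly all in the same direction. Of 40 listed genes 35 were compared, 33 differences were above 0, and the median was 0.66. Of these genes 9 were counted higher and none lower, where 4.1% of all genes compared were counted higher, and 6 were held. By intervals alone 26 of the 35 were higher at 30 h, against 22.4% of all genes compared. The median level was 15.0 FPKM at 8 h, as at 0 h (14.2 FPKM), and 23.8 FPKM at 30 h.

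The replicative helicase shows the size of the shift. Mcm6 was at 57.7 FPKM (55.7 to 59.7) at 30 h and 26.7 FPKM (25.2 to 28.1) at 8 h, and Mcm3 was at 54.7 FPKM at 30 h and 24.6 FPKM at 8 h. Mcm2, Mcm4, Mcm5 and Mcm7 were also higher at 30 h, with differences of 0.93 to 1.21. Pcna, the sliding clamp, was at 178 FPKM (173 to 183) at 30 h and 83.1 FPKM (79.6 to 86.5) at 8 h, beside 78.2 FPKM untreated. Gmnn, which encodes the licensing inhibitor geminin, was at 30.8 FPKM at 30 h and 9.29 FPKM at 8 h, the largest difference of the list (1.63). Lig1, the ligase of lagging-strand synthesis, was at 28.7 FPKM at 30 h and 10.2 FPKM at 8 h. Cdc6, which loads the helicase, was listed at 0 at 8 h and at 8.27 FPKM at 30 h, and so was not compared. Rfc2 was the largest decrease, 30.8 FPKM at 30 h and 53.3 FPKM at 8 h, with exon reads that were higher by 1.34 instead.

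Among 25 enzymes that supply nucleotides, 3 were held higher at 30 h, where 1.37% of all genes compared were. Rrm2 (chr12:24708254-24714146, mm10, plus strand), the regulated subunit of ribonucleotide reductase, had the largest difference of any gene named by the rule for the 12 largest, 2.68. It was at 30.7 FPKM (29.0 to 32.4) at 30 h and 3.95 FPKM (3.27 to 4.63) at 8 h. Dut, which clears dUTP, was held higher too, at 40.7 FPKM at 30 h and 19.4 FPKM at 8 h. The purine enzymes Ppat, Gart and Atic were not held, and the list median was 0.15. Tyms was counted lower, 15.1 FPKM at 30 h and 179 FPKM at 8 h, but its exon reads were lower by 0.57 only.

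Of 17 epigenetic enzymes compared, Uhrf1, Dnmt1 and Ezh2 were counted higher, where 4.1% of all genes compared were, and all 3 were held. None was counted lower, where 4.53% of all genes were, while 9 differences were above 0 and 8 below, with a median of 0.08. Uhrf1, which brings the maintenance methyltransferase to replicated DNA, was at 36.8 FPKM at 30 h and 6.97 FPKM at 8 h, and that methyltransferase, Dnmt1, was at 86.7 FPKM at 30 h and 19.8 FPKM at 8 h. The histone chaperone genes Asf1b (17.4 FPKM at 30 h, 5.71 FPKM at 8 h) and Chaf1b (9.51 FPKM and 3.60 FPKM) were held higher, and 14 of 15 genes of the histone and chaperone list had a difference above 0 (median 0.50). Ezh2, the methyltransferase of Polycomb, was at 42.7 FPKM at 30 h and 20.4 FPKM at 8 h. Regulators of entry into S phase were mixed. Of 21 compared, 4 were counted higher, 3 of them held, and 3 were counted lower with none held. Of all genes compared 4.1% were counted higher and 4.53% lower. In the list 15 differences were above 0, and the median was 0.11. Tfdp1, the partner of E2F proteins, was at 38.9 FPKM at 30 h and 17.0 FPKM at 8 h, and Mybl2 was at 6.67 FPKM at 30 h and 2.41 FPKM at 8 h. Skp2, a subunit of the ubiquitin ligase that targets p27, was counted lower, at 3.32 FPKM at 30 h and 8.64 FPKM at 8 h, but its exon reads were higher by 0.13. Of the D-type cyclin genes, Ccnd1 was counted lower, at 3.96 FPKM at 30 h and 10.7 FPKM at 8 h, with exon reads lower by 0.26 only. Ccnd2 was at 26.5 FPKM at 30 h and 24.9 FPKM at 8 h with overlapping intervals, and Ccnd3, at 45.9 FPKM at 30 h, was higher than at 8 h by 0.96.

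**Figure D2:**
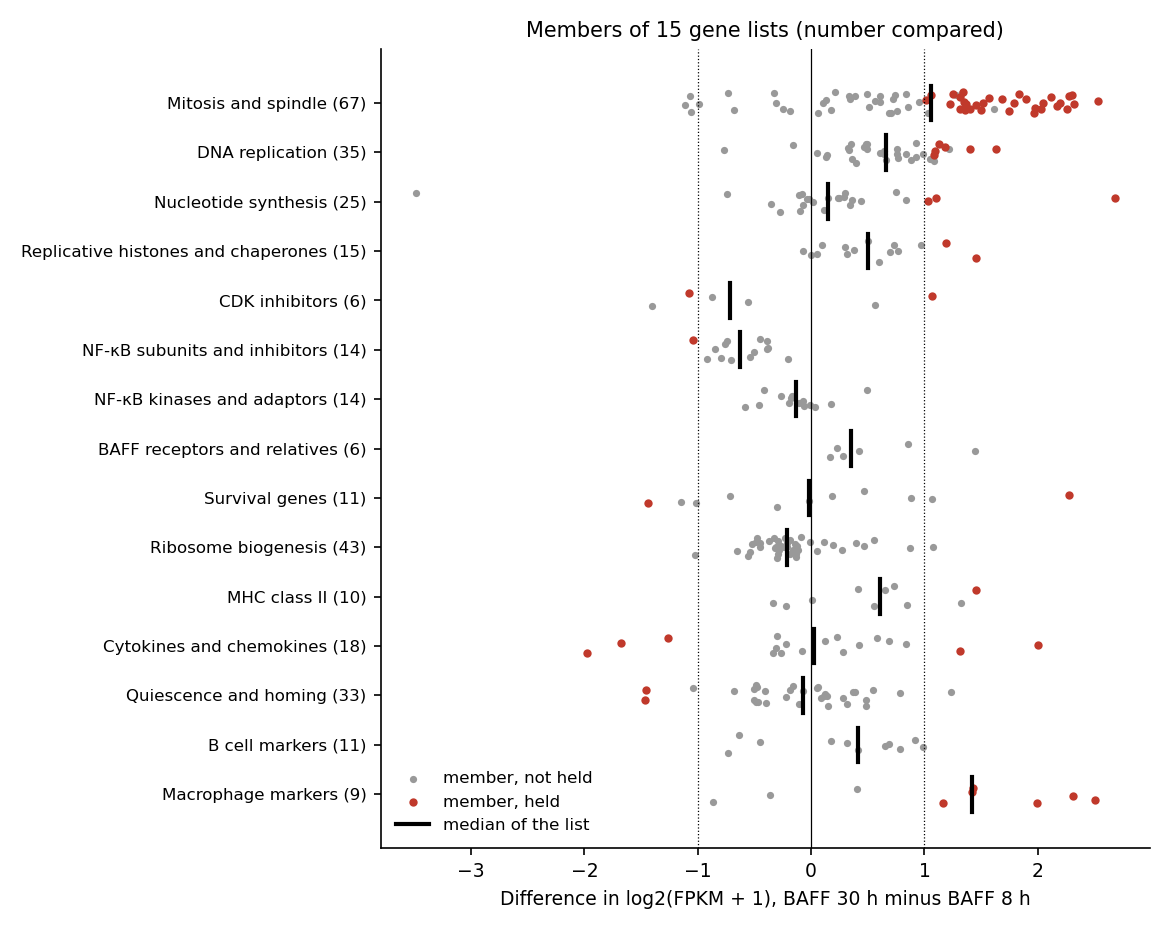
Each point is 1 gene of a list, placed by its difference in log2(FPKM + 1), BAFF 30 h minus BAFF 8 h; red points are held, black bars are list medians, and numbers in brackets are the genes compared. The mitosis list lies furthest right of the cell cycle lists (median 1.06), and all 14 NF-κB subunits and inhibitors lie left of 0.

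NF-κB genes went the other way, by smaller amounts. All 14 listed subunits and inhibitors were compared and all 14 were lower at 30 h than at 8 h, with a median difference of -0.62 (all genes compared -0.04). By intervals alone 13 of 14 were lower, against 28.1% of all genes compared. Only Nfkbid was counted as lower, where 4.53% of all genes were, and it was also held. The summed level of the 14 genes was 643 FPKM untreated, 1149 FPKM after 8 h of BAFF and 769 FPKM after 30 h, so the 8 h library was the highest of the course. Nfkbie was listed at 0 in the untreated library and adds nothing to its sum. By exon reads 13 of the 14 were lower, with a median of -0.43, and Cyld, which encodes a deubiquitinase that restrains the pathway, was higher by 0.22.

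Of the subunits of the alternative pathway, Nfkb2 (p100 and p52) was at 134 FPKM (131 to 137) at 30 h and 184 FPKM (180 to 188) at 8 h, beside 75.3 FPKM untreated. Relb was at 60.1 FPKM (56.7 to 63.5) at 30 h and 101 FPKM (97.0 to 106) at 8 h, beside 41.1 FPKM untreated, though its exon reads were lower by 0.26 only. Both stayed above the untreated library at 30 h. Of the classical subunits, Rel was at 48.9 FPKM at 30 h and 85.6 FPKM at 8 h, Nfkb1 at 85.9 FPKM at 30 h and 113 FPKM at 8 h, and Rela at 44.1 FPKM at 30 h and 57.9 FPKM at 8 h. Rel, with a difference of -0.80, had the largest decrease of the 5 subunits and Rela and Nfkb1, with -0.39 each, the smallest.

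The inhibitors and modifiers spread more widely. Nfkbid, an atypical nuclear inhibitor, was at 41.6 FPKM (39.6 to 43.6) at 30 h and 86.5 FPKM (83.3 to 89.7) at 8 h, beside 74.0 FPKM untreated, so that the 30 h library was the lowest. Bcl3, which binds p50 and p52 homodimers, was at 30.4 FPKM at 30 h and 58.3 FPKM at 8 h. Nfkbie was at 46.7 FPKM at 30 h and 79.7 FPKM at 8 h, and Nfkbia at 150 FPKM at 30 h and 195 FPKM at 8 h. Nfkbiz was at 13.5 FPKM at 30 h and 25.2 FPKM at 8 h, and Nfkbib was at 41.8 FPKM at 30 h and 61.3 FPKM at 8 h. Tnfaip3, the ubiquitin-editing enzyme A20, was at 21.9 FPKM at 30 h and 36.4 FPKM at 8 h, with an 8 h interval from 0 to 79.5 that covers both. Tnip1, an A20-binding protein, changed least (29.0 FPKM at 30 h, 33.5 FPKM at 8 h).

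Of 14 kinases and adaptors upstream of NF-κB none was counted, where 8.64% of all genes compared were. Their median was -0.14, and 3 of 14 differences were above 0. Map3k14, which encodes NIK, was at 22.7 FPKM at 30 h and 27.6 FPKM at 8 h, and Traf3 was at 24.9 FPKM at 30 h and 21.9 FPKM at 8 h. Birc3, which encodes cIAP2, was at 61.8 FPKM at 30 h and 82.6 FPKM at 8 h, and its relative Birc2 was at 33.4 FPKM at 30 h and 37.8 FPKM at 8 h.

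Both BAFF receptor genes compared were higher at 30 h. Tnfrsf13c, the gene of BAFF-R (chr15:82220188-82225084, mm10, minus strand), was at 135 FPKM (130 to 139) at 30 h and 48.8 FPKM (46.6 to 51.0) at 8 h, beside 83.8 FPKM untreated. It was counted, but its exon reads were higher by 0.77, under the difference that held requires. Tnfrsf13b, which encodes TACI, a second receptor of BAFF, was at 139 FPKM at 30 h and 76.6 FPKM at 8 h, beside 123 FPKM untreated. For both receptors the 8 h library was the lowest of the BAFF course. All 6 compared genes of the receptor and ligand list had differences above 0, by 0.17 to 1.45, and 3 of the 6 were higher by intervals alone, against 22.4% of all genes compared. The smallest was that of Cd40, a receptor for T cell help, at 57.2 FPKM at 30 h and 50.8 FPKM at 8 h with overlapping intervals and exon reads lower by 0.23. Ltb, the lymphotoxin beta gene, was at 480 FPKM at 30 h and 396 FPKM at 8 h, beside 236 FPKM untreated. Tnfrsf17 and Tnfsf13b had no gene of that name in the merged set, and Tnfsf13 was listed at 0 at both times.

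Survival genes showed no common direction. Of 11 compared, 2 were counted higher and 2 lower, against 4.1% and 4.53% of all genes compared, with a list median of -0.02. Pim1 (chr17:29490714-29496160, mm10, plus strand), a serine kinase of growth and survival, was held lower, at 28.3 FPKM (26.8 to 29.8) at 30 h and 78.5 FPKM (75.9 to 81.2) at 8 h, beside 52.4 FPKM untreated. Its relatives Pim2 (59.8 FPKM at 30 h, 99.1 FPKM at 8 h) and Pim3 (10.8 FPKM and 25.2 FPKM) were lower as well, without being held. The one gene of the list that was held higher was Birc5, described above with mitosis. Mcl1, an antiapoptotic BCL2 relative on which B cells depend, was at 316 FPKM at 30 h and 171 FPKM at 8 h, with exon reads higher by 0.30. Bcl2 was at 20.8 FPKM at 30 h and 14.8 FPKM at 8 h. Bcl2l1, which encodes BCL-XL, was at 6.38 FPKM at 30 h and 13.9 FPKM at 8 h, and the 8 h interval (1.65 to 26.1) covers both. Bcl2a1b, whose reads cannot be separated from those of its near-identical copies, was at 76.5 FPKM at 30 h and 77.4 FPKM at 8 h. None of 14 death genes was counted, where 8.64% of all genes compared were, and the median of the 14 was -0.22.

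Inhibitors of cyclin-dependent kinases split. Cdkn1a (p21) was held lower, at 4.99 FPKM at 30 h and 11.6 FPKM at 8 h, beside 5.34 FPKM untreated. Cdkn2d (p19) was held higher, at 23.3 FPKM at 30 h and 10.6 FPKM at 8 h, beside 27.1 FPKM untreated. Cdkn1b (p27) was counted lower, at 47.0 FPKM at 30 h and 126 FPKM at 8 h, with exon reads lower by 0.50 only. With anti-IgM, Cdkn1b was at 88.2 FPKM at 30 h and 27.6 FPKM at 8 h, a change in the opposite direction.

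Among growth genes Myc was lower at 30 h, and most ribosome biogenesis genes were lower by less than the counted size. Myc, a driver of biosynthesis, was at 29.8 FPKM at 30 h and 64.7 FPKM at 8 h, beside 143 FPKM untreated; it was counted lower, and its exon reads, lower by 0.99, fell just short of the size that held requires. Of 43 ribosome biogenesis genes 1 was counted higher and 1 lower, against 4.1% and 4.53% of all genes compared, and neither was held. Of their differences 34 were below 0, with a median of -0.22, and by intervals alone 27 of 43 were lower, against 28.1% of all genes compared. Their summed level was 1720 FPKM untreated, 2435 FPKM after 8 h of BAFF and 2325 FPKM after 30 h.

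**Figure D3:**
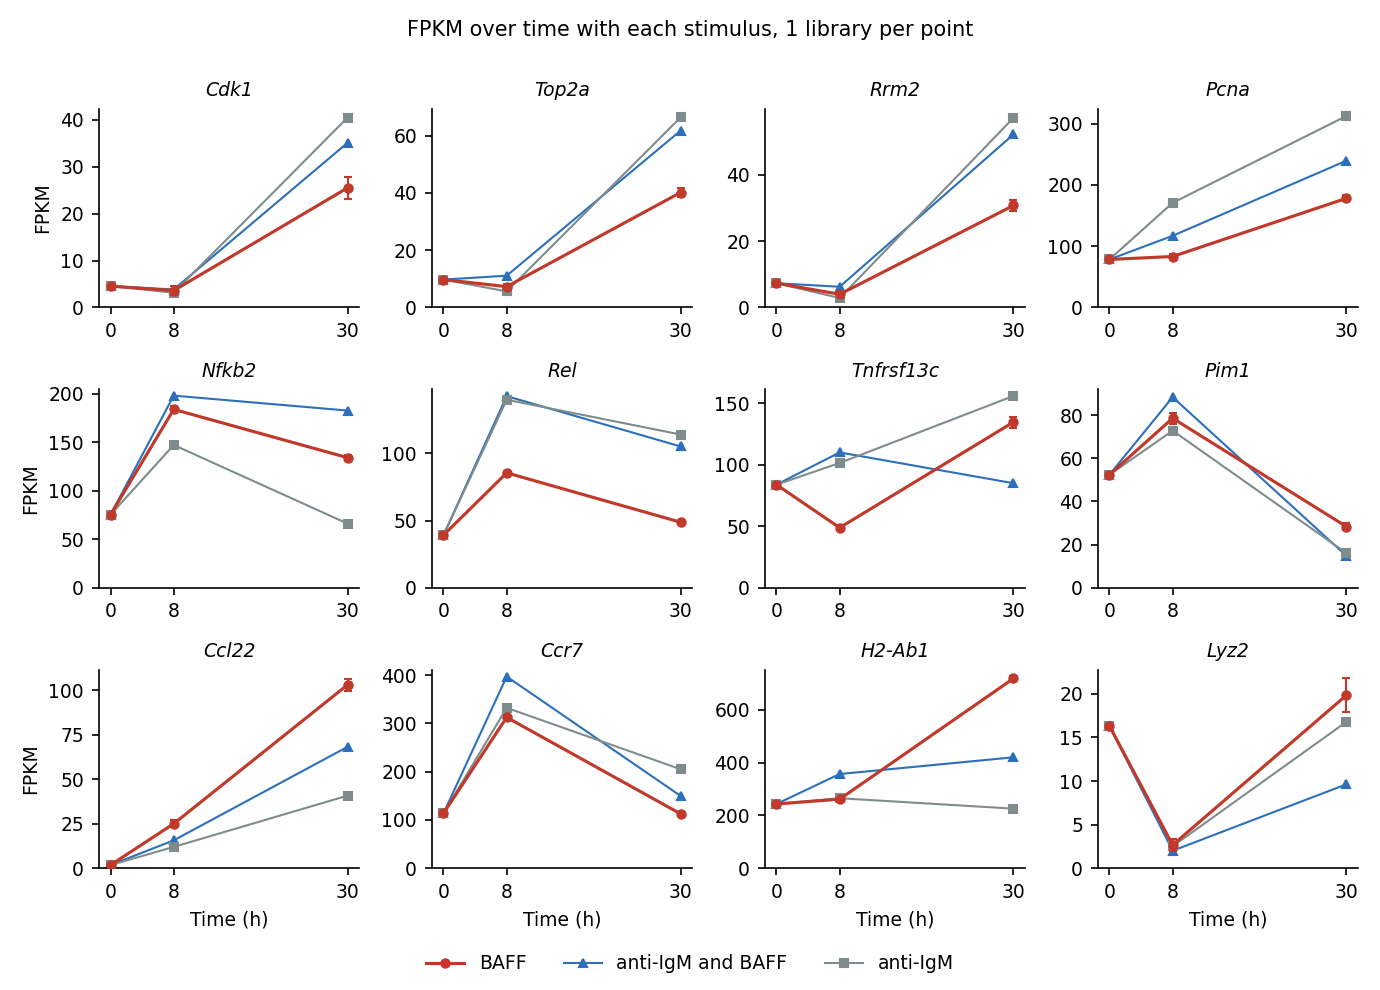
FPKM (vertical) of 12 genes over time in h (horizontal), with BAFF in red, anti-IgM and BAFF in blue and anti-IgM in grey, all 3 starting from the untreated library; each point is 1 library, and the red bars are the counting intervals of the BAFF libraries. Cdk1, Top2a and Rrm2 are low at 0 h and 8 h and higher at 30 h with every stimulus, Nfkb2, Rel and Pim1 peak at 8 h with BAFF, and H2-Ab1 is highest in the BAFF 30 h library at 719 FPKM.

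MHC class II genes, which present antigen to helper T cells, were mostly higher at 30 h. Of 10 compared, 8 differences were above 0, 7 were higher by intervals alone, where 22.4% of all genes compared were, 2 were counted higher, where 4.1% were, and 1, H2-Ab1, was held, where 1.37% were. The median was 0.61 (all genes compared -0.04). H2-Ab1 (chr17:34263227-34269418, mm10, plus strand), the beta chain of I-A, was at 719 FPKM (711 to 727) at 30 h and 262 FPKM (258 to 265) at 8 h, beside 243 FPKM untreated. Its alpha chain gene H2-Aa was at 269 FPKM at 30 h and 161 FPKM at 8 h, beside 390 FPKM untreated, and Ciita, the master activator of class II, was at 65.0 FPKM at 30 h and 35.8 FPKM (a wide interval, 12.4 to 59.2) at 8 h, beside 94.5 FPKM untreated. These 2 stood below the untreated library at both times and H2-Ab1 did not. Cd74, the invariant chain, was at 5657 FPKM at 30 h and 4235 FPKM at 8 h. H2-DMb1 was counted higher (224 FPKM at 30 h, 89.1 FPKM at 8 h), but its near-identical neighbour H2-DMb2 was listed at 0 at 30 h and at 230 FPKM at 8 h, and the exon reads of H2-DMb1 were lower by 0.24. The split between these 2 copies is uncertain.

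Macrophages carry class II too, and most of their compared markers moved in the same direction. Of 22 listed macrophage markers 9 were compared, with a median of 1.42. Of these, 6 were counted higher, where 4.1% of all genes compared were, and all 6 were held, where 1.37% were. Differences were above 0 for 7 of the 9 and below 0 for 2, and these 2 were lower by intervals alone. Summed over the 20 genes that the merged set names, their level was 458 FPKM untreated, 40.7 FPKM after 8 h of BAFF and 145 FPKM after 30 h. Lyz2, the macrophage lysozyme, was at 19.8 FPKM (17.9 to 21.8) at 30 h and 2.67 FPKM (1.94 to 3.40) at 8 h, and Cd5l, a secreted scavenger protein, was higher at 30 h by 2.31 on the log2 scale, against 3.64 FPKM at 8 h. Emr1, which encodes F4/80, was at 48.2 FPKM at 30 h and 11.3 FPKM at 8 h. C1qb and C1qc were each at 5.88 FPKM at 30 h and at 1.56 and 1.57 FPKM at 8 h. Cd68, Fcgr1, Fcgr3, Lyz1 and Cd14 were listed at 0 at 30 h, 5 of 20, and 10 of 20 were listed at 0 at 8 h. The macrophage median over time was also above 0 with anti-IgM (0.94), where H2-Ab1 was at 226 FPKM at 30 h and 265 FPKM at 8 h. The part of these cells in the class II values was not tested.

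Markers of other cell types were also present. Of the NK cell genes, 2 were compared, both with differences below 0. Klrd1 (CD94) was held lower, at 1.21 FPKM at 30 h and 8.10 FPKM at 8 h, and Nkg7 and Klrk1 were listed at 0 at both times. The globin gene listed as Beta-s was at 218 FPKM untreated, 45.1 FPKM after 8 h of BAFF and 12.2 FPKM after 30 h. The T cell markers that the merged set names summed to 106 FPKM at 30 h and 82.4 FPKM at 8 h. Of 5 compared, 1 was counted higher, where 4.1% of all genes compared were, and 3 differences were above 0. The median was 0.28, or 0.06 by exon reads. The counted gene, Lck, a T cell kinase also found in some B cells, was held, at 35.0 FPKM at 30 h and 14.9 FPKM at 8 h, while Cd3g, Cd247 and Zap70 were listed at 0 at both times. Dendritic cell markers summed to 68.6 FPKM at 30 h and 65.3 FPKM at 8 h, and of 4 compared 1, Batf3, was counted higher but not held, with a median of -0.02. The endothelial gene Pecam1, also made by B cells, was at 80.6 FPKM at 30 h and 76.8 FPKM at 8 h. No neutrophil gene was compared.

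Some chemokine and homing receptor genes had large held differences. Of 18 cytokine and chemokine genes compared, 2 were counted higher and 3 lower, and all of these were held. Of all genes compared 4.1% were counted higher and 4.53% lower. In the list 9 differences were above 0 and 9 below, with a median of 0.02. Ccl22, a chemokine that draws T cells bearing CCR4, was at 103 FPKM (99.8 to 106) at 30 h and 25.0 FPKM (23.2 to 26.9) at 8 h, beside 1.78 FPKM untreated, and so was higher at each later time. Ccl5 was at 73.8 FPKM (67.0 to 80.6) at 30 h and 29.1 FPKM (24.6 to 33.7) at 8 h, beside 52.2 FPKM untreated. Ccl4 was held lower, at 5.64 FPKM at 30 h and 15.0 FPKM at 8 h. Another pair of secreted factors was held lower, the cytokine gene Il1b (2.46 FPKM at 30 h and 10.1 FPKM at 8 h, beside 36.8 FPKM untreated) and the vessel growth factor gene Vegfa (1.58 FPKM at 30 h, 9.17 FPKM at 8 h, beside 0 untreated). Il1b and Vegfa had the largest decreases of the 18 cytokine genes compared, -1.68 and -1.98.

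Ccr7 (chr11:99144199-99155077, mm10, minus strand), the receptor that guides lymphocytes to T cell zones, was at 113 FPKM (110 to 116) at 30 h and 313 FPKM (307 to 318) at 8 h, beside 114 FPKM untreated. Its 30 h level was close to the untreated one, and only the 8 h library stood apart. Cxcr4, the receptor for CXCL12, was at 36.7 FPKM (34.3 to 39.1) at 30 h and 103 FPKM (98.5 to 107) at 8 h, beside 479 FPKM untreated, lower at each later time. Both were held. Cxcr5, which guides B cells to follicles, was at 95.7 FPKM at 30 h and 101 FPKM at 8 h, with a difference of -0.07. S1pr1, the receptor used to leave lymphoid organs, was at 73.8 FPKM at 30 h and 60.7 FPKM at 8 h. Across the 33 quiescence and homing genes compared, 1 was counted higher and 3 lower, against 4.1% and 4.53% of all genes compared. The median of the list was -0.07. Il2ra, the alpha chain of the interleukin-2 receptor, was held lower, at 5.71 FPKM at 30 h and 14.6 FPKM at 8 h.

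Most of the other large decreases were peaks at 8 h. Dhx40, an RNA helicase gene, was at 21.0 FPKM (18.6 to 23.3) at 30 h and 124 FPKM (123 to 125) at 8 h, beside 19.1 FPKM untreated, and it was at 9.46 to 14.7 FPKM in the 4 libraries with anti-IgM. Basp1, whose protein can repress MYC targets, was at 6.52 FPKM at 30 h and 36.9 FPKM at 8 h, beside 11.7 FPKM untreated. Anxa2, a membrane-binding annexin, was at 14.3 FPKM at 30 h and 42.6 FPKM at 8 h, beside 8.54 FPKM untreated. Grasp, a scaffold protein gene, was at 3.28 FPKM at 30 h and 17.0 FPKM at 8 h, beside 2.21 FPKM untreated. Spag1 was at 2.97 FPKM (1.09 to 4.85) at 30 h and 23.8 FPKM (5.45 to 42.2) at 8 h, so that its intervals barely cleared each other. Dkk2, a secreted Wnt antagonist, was at 1.42 FPKM at 30 h and 8.15 FPKM at 8 h, Afap1 at 1.26 and 7.65 FPKM and Lamp3 at 0.941 and 5.77 FPKM. Lamp3 was the exception, with its highest value (8.15 FPKM) in the untreated library. Rab11fip4, a partner of Rab11 in vesicle recycling, was the only gene outside the lists among the 12 increases that the naming filters kept. It was at 10.3 FPKM at 30 h and 1.26 FPKM at 8 h, beside 7.55 FPKM untreated. The filters removed genes by name or for an expressed neighbour. Some removed genes outside the lists had larger held increases, among them Ttll3 (3.48), Rpl22l1 (2.76) and Cdca3 (2.52). The largest of these was that of Tnnt3, at 321 FPKM at 30 h and 4.27 FPKM at 8 h, beside 342 FPKM untreated.

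The change from 8 h to 30 h was then set beside the change over the same times with anti-IgM and with both stimuli, comparisons that use other libraries. With anti-IgM 1404 of 10017 genes were counted, 14%. Of these 846 were higher, 8.45%, and 558 lower, 5.57%, with 435 held higher, 4.34%, and 254 held lower, 2.54%. With both stimuli 1306 of 9821 genes were counted, 13.3%. Of these 567 were higher, 5.77%, and 739 lower, 7.52%, with 336 held higher, 3.42%, and 284 held lower, 2.89%. Of the 137 genes held higher with BAFF, 88 were held higher with anti-IgM, 64.2% of the BAFF set and 20.2% of the anti-IgM set. Of the 55 held lower with BAFF, 18 were held lower with anti-IgM, 32.7% and 7.09%. With both stimuli 74 of the 137 and 18 of the 55 were held the same way, 74 of the 336 and 18 of the 284 genes held there. Across 8361 genes with at least 5 FPKM, the changes with BAFF and with anti-IgM had a correlation of 0.32, or 0.59 by exon reads; genes are not independent replicates, and all libraries were assembled by the same steps.

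The division genes moved the same way under all 3 treatments, least with BAFF. The mitosis list had a median change of 1.06 with BAFF, 1.51 with both stimuli and 1.84 with anti-IgM. Of 64 mitosis genes compared under both single treatments, 12 had the larger change with BAFF. At 30 h their summed level was 1118 FPKM with BAFF, 1588 FPKM with both and 1750 FPKM with anti-IgM, and 56 of the 67 genes were lower with BAFF than with anti-IgM. At 8 h the sums were 580, 557 and 495 FPKM. Stmn1 shows the gap at 30 h, with 107 FPKM with BAFF, 223 FPKM with both and 275 FPKM with anti-IgM. For DNA replication the medians were 0.66 with BAFF, 1.35 with both and 1.56 with anti-IgM, and all 35 genes were lower with BAFF than with anti-IgM at 30 h. At 30 h Mcm6 was at 57.7 FPKM with BAFF, 124 FPKM with both and 129 FPKM with anti-IgM.

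Ribosome biogenesis genes differed in the opposite sense. Their median change was -0.22 with BAFF, -0.99 with both and -0.99 with anti-IgM, and the change was less negative or more positive with BAFF than with anti-IgM for 40 of 43 genes. At 8 h their summed level was 2435 FPKM with BAFF and 5016 FPKM with anti-IgM, and at 30 h it was 2325 FPKM with BAFF and 3051 FPKM with anti-IgM. Myc followed with 29.8 FPKM at 30 h and 64.7 FPKM at 8 h with BAFF, and 61.2 FPKM at 30 h and 263 FPKM at 8 h with anti-IgM. For NF-κB genes the medians were close, -0.62 with BAFF, -0.44 with both and -0.46 with anti-IgM. Nfkb2 had a change of -0.45 with BAFF and -1.14 with anti-IgM, after which it was at 134 FPKM with BAFF, 183 FPKM with both and 66.1 FPKM with anti-IgM at 30 h.

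**Figure D4:**
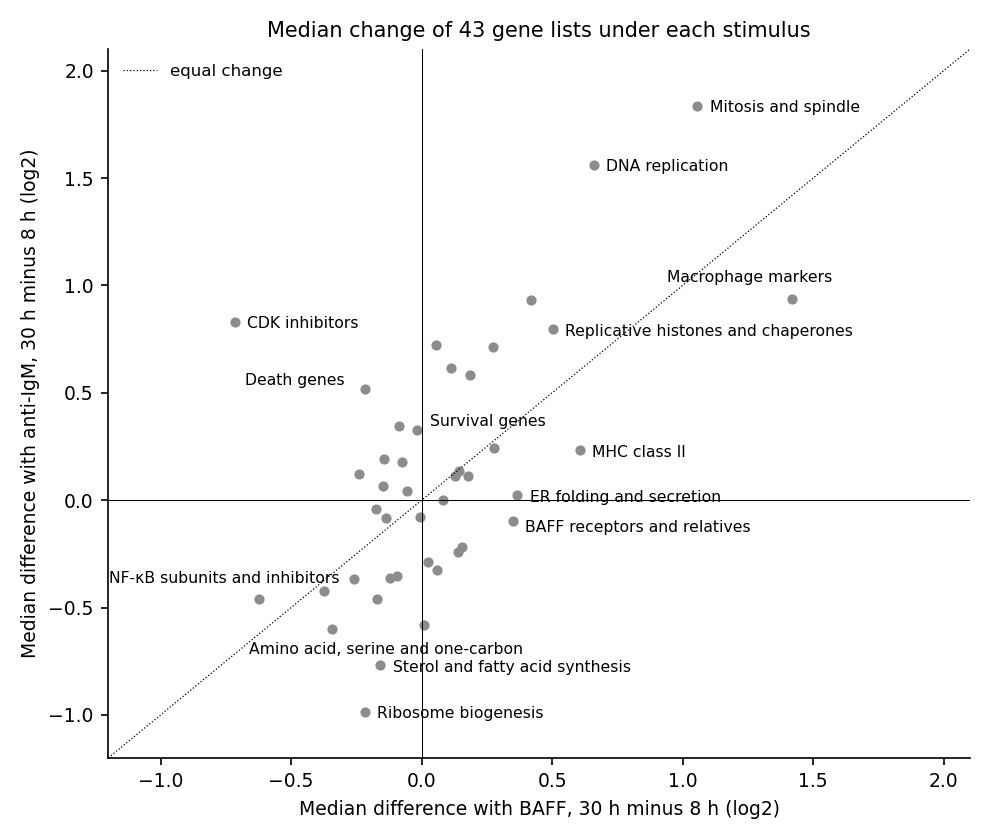
Median change from 8 h to 30 h of 43 gene lists in log2(FPKM + 1), with BAFF (horizontal) and with anti-IgM (vertical); the dotted line marks equal change. Mitosis and DNA replication lie above the line with smaller changes under BAFF, ribosome biogenesis lies below it with a change near 0 under BAFF (-0.22), and MHC class II has the larger change under BAFF (0.61).

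Gene by gene, the change with BAFF was at least 1 away from that with anti-IgM, beyond counting error, for 1537 of 9636 genes by FPKM, 16%, and for 316 of them by exon reads as well, 3.28%. Of these, 106 had the higher change with BAFF, 1.1%, and 210 the lower, 2.18%. Against both stimuli 1414 of 9538 genes differed by FPKM, 14.8%, and 263 of them by exon reads as well, 2.76%, with 124 higher with BAFF, 1.3%, and 139 lower, 1.46%. Of the mitosis genes 12 of 64 differed from anti-IgM in this way, Mki67 and Top2a among them, and of DNA replication genes 4 of 35. MHC class II contributed 3 of 10, H2-Ab1, H2-DMa and H2-Oa. H2-Ab1 had a change of 1.45 with BAFF, 0.23 with both and -0.23 with anti-IgM. H2-DMa was at 101 FPKM at 30 h and 127 FPKM at 8 h with BAFF, and 80.1 FPKM at 30 h and 41.9 FPKM at 8 h with anti-IgM.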

How the data were processed

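RNA of 7 B cell libraries was sequenced by the authors with poly-dT priming and Illumina TruSeq kits, per the labels' protocols. Per the submitters' processing notes, CASAVA 1.8.2, TopHat2 2.0.5, Bowtie2 2.0.0.7, Cufflinks 2.0.2 and the genome build mm10 were used; how each was run is not given in the sources used here. The deposited values are the FPKM of transcripts that the authors assembled in each library separately, with bounds and coverage, per the file headers. A merged transcript set, with no expression values, gave names, exons and positions.

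FPKM was summed per gene over transcripts of at least 300 bases, since shorter pieces held 66.6% of summed FPKM in the BAFF 8 h library and 72.4% in the BAFF 30 h library. Differences used a pseudocount of 1. With 1 library a group there was no test. Depth was taken from coverage divided by FPKM. Intervals combine the transcript bounds of Cufflinks as if independent and cover no spread between cultures. Genes with another expressed gene within 1000 bases, 42 of the held higher and 15 of the held lower ones, may share reads with it.

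The genes, the 49 lists and the rules were chosen with earlier results of these data known. Named genes were the 12 largest held differences each way at 5 FPKM or more, with no expressed neighbour and leaving out immunoglobulin segments, small RNAs, ribosomal protein copies and predicted genes, up to 4 per list, and all NF-κB subunits, inhibitors and BAFF receptors. Other examples from the lists were picked with their values in view. The counting rule was tested on simulated data that held counting error only. That simulation did not cover assembly, spread between cultures or the held rule. Alternatives covered the pseudocount, filters, transcript choice, scaling, intervals, exon reads and genes not assembled. Work was done in Python 3.11.15 using pandas 2.3.3, numpy 2.4.6 and, for plots, matplotlib 3.10.9. Some list members are counted in the lists but not reported by name here.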

Additional observations from a re-analysis of the deposited data

Results flagged for a closer look

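Among the 193 genes chosen by the naming rules, 58 were held with BAFF, and in 5 of these the change with anti-IgM had the other sign and lay at least 1 away, beyond counting error, by FPKM and by exon reads. Over all 192 held genes the same was true of 28, and only the 5 are described. For Tap1, Atp5h and Neil1 the change with anti-IgM was near 0. With 1 library a group none of these differences was tested.

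H2-Ab1, a class II chain, had a change of 1.45 with BAFF and -0.23 with anti-IgM, and 0.23 with both stimuli. Psma4, a proteasome subunit gene, had 1.11 with BAFF, -0.51 with anti-IgM and -0.41 with both. It was at 109 FPKM at 30 h and 50.2 FPKM at 8 h with BAFF.

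Tap1, a subunit of the peptide transporter that loads class I, had -1.55 with BAFF and 0.10 with anti-IgM. It was at 32.8 FPKM at 30 h and 98.0 FPKM at 8 h with BAFF, and between 27.7 and 34.2 FPKM in the 5 other libraries, so only the BAFF 8 h library stood apart. Its neighbours Psmb8 and Psmb9 lie within 1000 bases. Atp5h, a subunit gene of mitochondrial ATP synthase, had -1.63 with BAFF and 0.10 with anti-IgM, and lies within 1000 bases of Kctd2. Neil1, a DNA glycosylase of base excision repair, had -1.62 with BAFF and 0.05 with anti-IgM, with 15.0 FPKM at 30 h and 48.1 FPKM at 8 h, beside 20.0 FPKM untreated.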

How the results depend on the processing

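With a pseudocount of 0.1 in place of 1, 206 genes were held higher and 110 lower, and with 5, 191 were counted higher and 184 lower, 56 and 22 of them held. With the most abundant transcript in place of the sum, 262 were counted lower. By exon reads alone 231 were counted higher and 96 lower. With genes assembled at 1 time only set to 0 at the other, 795 were counted higher and 787 lower, with 282 and 155 held. For changes that differed between BAFF and both stimuli, exon reads alone gave 405 genes. List medians moved beyond the counting error of their genes in 11 of 44 cases by exon reads, among them NF-κB subunits (-0.43), DNA replication (0.86) and mitosis (1.41), in 3 with all transcripts, in 2 with a minimum of 5 FPKM, and in 1, macrophage markers (1.84), with a pseudocount of 0.1. By exon reads 10 of the named genes that were counted reversed. These were Skp2 (0.13), Mga (-0.081), Rrp1b (-0.25), Mthfd2 (-0.10), Ndufb8 (0.14), H2-DMb1 (-0.24), H2-Q4 (0.49), Tcf4 (0.34), Hes1 (0.22) and Lamp2 (0.073). Named genes that were not counted are outside this number, and some also changed sign, among them Ikbkg (-0.32), Cyld (0.22) and Cd40 (-0.23). Both measures used assembled pieces of at least 300 bases. Exon reads took every such piece over a gene's exons, on either strand, and FPKM only the pieces named for that gene. Median-of-ratios scaling left 188 of 193 named genes on the same side of the threshold. No paired analysis was possible because each group is 1 library, and for the same reason none could be left out.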

Other observations

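Genes for folding and secreting proteins in the endoplasmic reticulum were slightly higher at 30 h of BAFF. Of 26 compared, 21 differences were above 0 and the median was 0.37, with a median of 0.02 for the same genes with anti-IgM. Sdf2l1, which helps the chaperone BiP, was held higher, at 29.5 FPKM at 30 h and 9.71 FPKM at 8 h. Xbp1, the transcription factor of the unfolded protein response, was at 52.6 FPKM at 30 h and 30.8 FPKM at 8 h with a difference of 0.75, under the size that is counted.

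Targets of p53 were mostly lower at 30 h. Of 24 compared, 3 differences were above 0 and the median was -0.38, with -0.42 under anti-IgM. Cdkn1a was the only one counted, where 8.64% of all genes compared were. Trp53 itself was at 49.2 FPKM at 30 h and 89.5 FPKM at 8 h. Of 32 interferon-stimulated genes 9 were above 0, and Ifit3 was held lower, at 6.19 FPKM at 30 h and 14.9 FPKM at 8 h. Sterol and fatty acid genes had a median of -0.16 with BAFF and -0.77 with anti-IgM. Of the genes induced early by the antigen receptor, Dusp5, a phosphatase of ERK, was held lower, at 11.2 FPKM at 30 h and 33.8 FPKM at 8 h, and Fos was at 627 FPKM untreated, 7.22 FPKM after 8 h of BAFF and 1.63 FPKM after 30 h.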
